A study of Rattus norvegicus with 9 samples.

Results

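The 7 genes described here are Tp73, a transcription factor of the p53 family, and 6 genes grouped with it as checkpoint targets. These 6 are Mdm2, Ccng1, Sesn1, Gadd45a, Gadd45b and Gadd45g. The grouping does not show that p53 switches on each of them. The 7 genes were taken by symbol from the gene tables, where each had 1 row among 28935 genes. All 7 were among the 14151 genes that had enough counts to be tested. The cells were ventricular cardiomyocytes of Sprague-Dawley rat pups aged 1 to 2 days. They were cultured for 48 h with 3% serum, then infected with an adenovirus and kept for 48 h in serum-free medium. One group carried a virus for NFYa, the DNA-contacting subunit of the CCAAT-binding factor NF-Y. One carried a virus for NFE2L1, a stress-activated factor of the cap'n'collar family. The control group carried a virus for green fluorescent protein (GFP). Each group had 3 libraries. The control cells were also infected, so no group is free of virus. For all 9 libraries the labels give 8 µL of virus and 1 mL of medium, a volume that does not show an equal viral dose. Separate cultures or litters are not named in the labels, so p-values measure no more than the variation among these 9 libraries, possibly a technical one. Counting error alone would give a chi-square per degree of freedom of about 1 between libraries of a group. It was 1.03 to 1.08 for Nfya, 1.16 to 1.55 for Nfe2l1 and 1.10 to 1.66 for GFP.

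In stressed cells p53 binds paired half-sites near its target genes and raises their transcription. Mdm2 is a target that in turn marks p53 for degradation, which closes a negative feedback loop. The p53 relative p73 binds similar sites, and its gene gives full-length and N-terminally shortened products from separate promoters, which a count per gene does not tell apart. The Gadd45 proteins bind cell cycle and stress kinase partners, the sestrins restrain mTORC1 signalling, and cyclin G1 recruits protein phosphatase 2A to Mdm2. Cardiomyocytes leave the cell cycle soon after birth. NF-Y binds the sequence CCAAT, and NFE2L1 with a small Maf partner binds antioxidant response elements with the core TGACNNNGC.

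The promoters of the 7 genes are shown first because the viruses carried factors with known binding sequences. The RefSeq promoter windows of the GRCr8 build, which run from 250 bases before to 50 bases after each gene's start, were searched on both strands for CCAAT, for TGACNNNGC and for the p53 half-site. CCAAT was found in the windows of 7 of the 7 genes, against 37.5% of all 33469 windows and 36.8% of the 11475 windows of tested genes. In each of the 7 windows 1 CCAAT began between 80 and 110 bases before the start, a range chosen after the positions were seen. A CCAAT in that range was found in 6.8% of all windows and 8.9% of the windows of tested genes. These 7 boxes are given below with 20 bases on each side, read so that CCAAT, in capitals, runs 5′ to 3′. For Mdm2 and Ccng1 that is the plus strand and for Sesn1 the minus strand, opposite to the gene.
Tp73: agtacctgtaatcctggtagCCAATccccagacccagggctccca
Mdm2: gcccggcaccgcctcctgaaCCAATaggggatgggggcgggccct
Ccng1: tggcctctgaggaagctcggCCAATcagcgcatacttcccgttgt
Sesn1: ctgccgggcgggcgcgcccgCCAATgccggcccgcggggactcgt
Gadd45a: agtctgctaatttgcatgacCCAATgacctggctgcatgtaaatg
Gadd45b: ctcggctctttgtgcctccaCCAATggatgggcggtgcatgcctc
Gadd45g: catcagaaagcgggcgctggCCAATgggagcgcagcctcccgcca

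With these flanks, the box of Tp73 lay at chr5:169963611-169963655 on the minus strand and began 83 bases before the start. The boxes of the minus-strand genes Mdm2 at chr7:55200872-55200916 and Ccng1 at chr10:25684946-25684990 began 105 and 94 bases before it. The box of Sesn1, a plus-strand gene, lay at chr20:46948608-46948652 and began 91 bases before the start. The boxes of the 3 Gadd45 genes, which are on minus strands, lay at chr4:97486869-97486913 for Gadd45a, at chr7:9430786-9430830 for Gadd45b and at chr17:13530426-13530470 for Gadd45g. They began 94, 92 and 99 bases before the start. Ccng1 held 3 CCAAT matches in its window, Tp73 and Gadd45b held 2 each, and the 4 other genes held 1 each.

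Matches to TGACNNNGC and to the p53 half-site were less widespread among the 7 genes. TGACNNNGC matched in 2 of the 7 windows, those of Gadd45a and Gadd45g, against 12.1% of all windows and 14.6% of those of tested genes. In Gadd45a this match shared 1 base with the CCAAT box. The p53 half-site, which reads the same on both strands and was counted once, matched in 3 of the 7 windows, those of Ccng1, Sesn1 and Gadd45a, against 8.0% of all windows and 6.8% of those of tested genes. Only single half-sites were searched, so these matches do not show the paired half-sites that p53 binds. A match is a description of the letters in the window and does not show that a factor binds there.

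The 250 bases before the start are printed for Tp73, Sesn1 and Gadd45b because these 3 genes passed the test in each of the 3 comparisons below. Capitals mark CCAAT on either strand, so ATTGG where the box is on the other strand, and the p53 half-site. The stretches are chr5:169963553-169963802 on the minus strand, chr20:46948469-46948718 on the plus strand and chr7:9430719-9430968 on the minus strand, all of GRCr8.
Tp73: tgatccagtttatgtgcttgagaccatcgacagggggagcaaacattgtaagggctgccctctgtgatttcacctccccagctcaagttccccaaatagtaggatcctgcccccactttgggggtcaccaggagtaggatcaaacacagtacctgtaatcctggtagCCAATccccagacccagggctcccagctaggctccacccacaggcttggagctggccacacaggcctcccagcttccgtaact
Sesn1: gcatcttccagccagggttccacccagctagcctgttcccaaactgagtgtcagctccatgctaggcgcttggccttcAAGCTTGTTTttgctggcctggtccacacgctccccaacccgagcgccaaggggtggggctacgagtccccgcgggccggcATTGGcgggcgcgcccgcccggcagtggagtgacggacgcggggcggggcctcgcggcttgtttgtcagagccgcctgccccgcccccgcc
Gadd45b: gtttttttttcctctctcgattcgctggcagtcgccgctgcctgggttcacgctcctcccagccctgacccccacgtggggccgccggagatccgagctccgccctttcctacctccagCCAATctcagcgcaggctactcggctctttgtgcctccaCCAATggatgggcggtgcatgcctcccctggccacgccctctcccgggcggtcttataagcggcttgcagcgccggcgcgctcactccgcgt

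The starts used for Tp73, Sesn1, Mdm2 and Gadd45b lay 24523, 71801, 966 and 273 bases inside the outermost annotated end of the gene, so these genes have other annotated starts whose promoters were not searched.

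**Figure D1:**
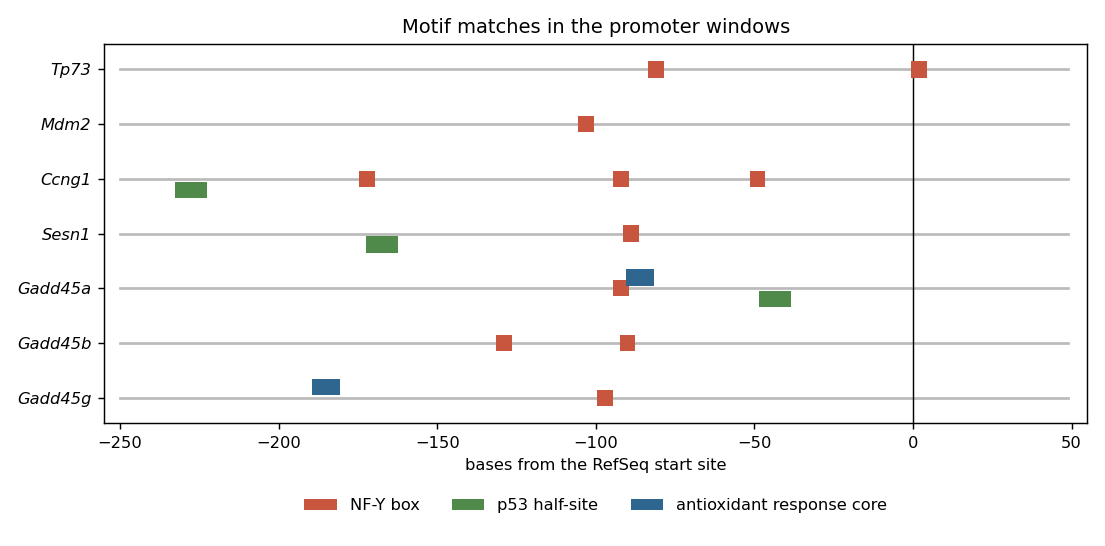
Map of motif matches in the 7 promoter windows, with the position in bases from the RefSeq start site on the x axis and 1 line per gene. Red blocks are the NF-Y box, blue blocks the antioxidant response core and green blocks the p53 half-site. Each of the 7 genes has a red block between 80 and 110 bases before the start.

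The 9 libraries held between 5712123 and 7310774 counts. Libraries are named here by their virus label, because the transcripts of the 2 delivered genes did not mark their own groups. Nfya averaged 89.0 ± 0.683 CPM (counts scaled to a fixed library total) in Nfya-labelled, 92.3 ± 2.20 CPM in Nfe2l1-labelled and 80.4 ± 2.19 CPM in GFP-labelled libraries (SD, n = 3 each). Against GFP its log2 fold change was 0.15 ± 0.05 (SE) in Nfya-labelled libraries (adjusted p = 0.00926, and 0.0843 with DESeq2) and 0.20 ± 0.05 in Nfe2l1-labelled libraries (adjusted p = 2.06e-04). Nfe2l1 averaged 223 ± 4.79 CPM in Nfya-labelled, 239 ± 6.14 CPM in Nfe2l1-labelled and 241 ± 6.09 CPM in GFP-labelled libraries, and its log2 fold change in Nfe2l1-labelled against GFP-labelled libraries was -0.01 ± 0.04 (adjusted p = 0.856). Directions below therefore rest on the labels. Whether the delivered sequences could be counted on the rat annotation was not tested. Cardiomyocyte markers were present, with summed levels of 3316 to 3372 CPM in Nfya-labelled, 2978 to 3287 CPM in Nfe2l1-labelled and 3088 to 3426 CPM in GFP-labelled libraries over 9 genes.

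Differences were tested with edgeR's quasi-likelihood test on the counts of all 9 libraries, and the threshold was an adjusted p of 0.05 (Benjamini-Hochberg, 14151 tested genes). Many genes passed in each comparison, so the counts of members are set beside the share over all tested genes. In Nfya-labelled against GFP-labelled libraries 4 of the 7 genes passed, 1 higher and 3 lower. Of all tested genes 52.2% passed, 24.3% higher and 27.9% lower. In Nfe2l1-labelled against GFP-labelled libraries 5 of the 7 genes passed, 0 higher and 5 lower. Of all tested genes 58.6% passed there, 28.9% higher and 29.7% lower. In Nfya-labelled against Nfe2l1-labelled libraries 5 of the 7 genes passed, 3 higher and 2 lower. Of all tested genes 50.6% passed there, 25.2% higher and 25.4% lower. No test set the 7 genes against the others. The comparisons with GFP-labelled libraries share those 3 libraries.

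Complete separation of the libraries was likewise common. The CPM ranges stood apart for 4 of the 7 genes in Nfya-labelled against GFP-labelled libraries, where the share of all tested genes was 61.6%. They stood apart for 5 of the 7 in Nfe2l1-labelled against GFP-labelled libraries, where it was 64.0%, and for 5 of the 7 in Nfya-labelled against Nfe2l1-labelled libraries, where it was 60.0%. The median log2 fold change of the 7 genes was -0.08 in the first of these comparisons, -0.25 in the second and 0.04 in the third. Over all tested genes it was -0.02, -0.01 and 0.01.

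**Figure D2:**
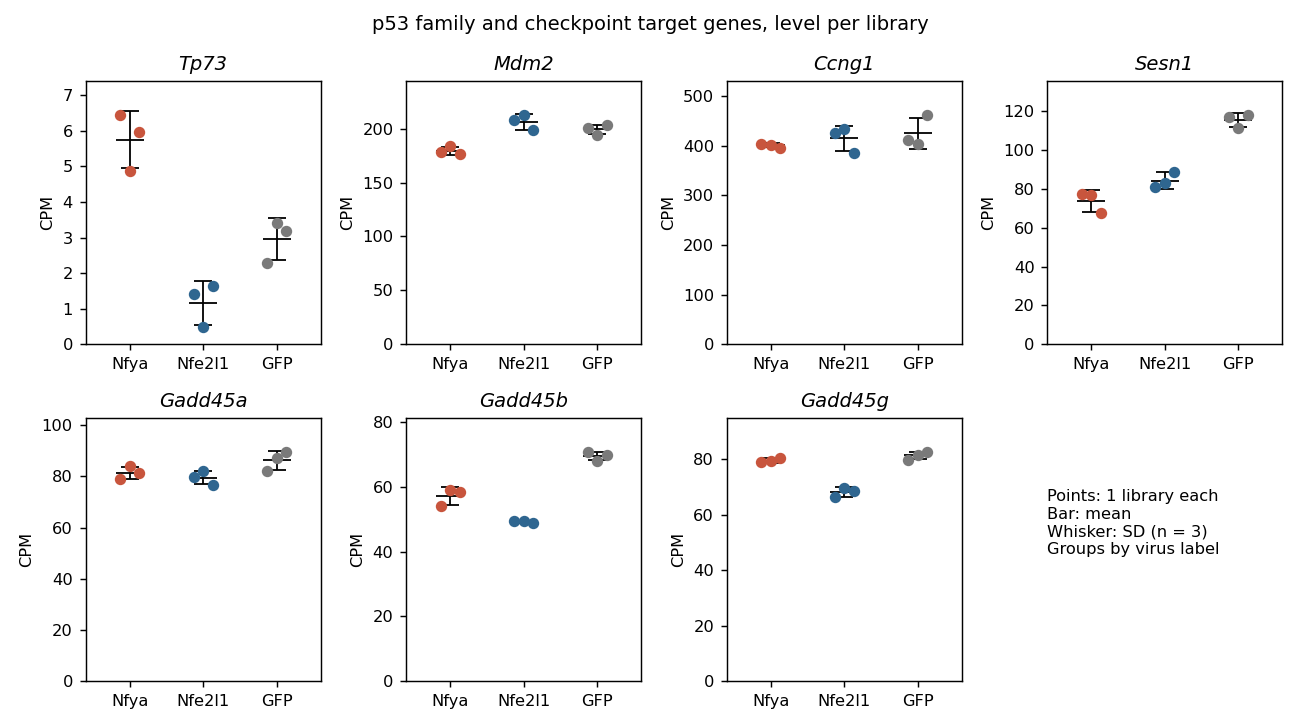
Level of each gene in CPM (y axis, from 0) in the 9 libraries, with groups by virus label on the x axis. Points are libraries, bars the mean and whiskers the SD (n = 3). Tp73 is highest in Nfya-labelled and lowest in Nfe2l1-labelled libraries, and Sesn1 and Gadd45b are highest in GFP-labelled libraries.

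Tp73 was the one member of the set that rose in Nfya-labelled libraries and fell in Nfe2l1-labelled libraries, each relative to GFP. It had 42, 32 and 40 counts, or 6.44, 4.86 and 5.97 CPM, in Nfya-labelled libraries. It had 9, 3 and 12 counts, or 1.40, 0.470 and 1.64 CPM, in Nfe2l1-labelled libraries, and 15, 23 and 18 counts, or 2.30, 3.40 and 3.18 CPM, in GFP-labelled libraries. The 3 groups did not overlap, with Nfya-labelled libraries above and Nfe2l1-labelled libraries below the GFP-labelled ones. A bulk level of this kind cannot tell fewer cells of a type from less RNA per cell, which holds for each gene below.

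The log2 fold change of Tp73 was 0.96 ± 0.26 (SE) in Nfya-labelled against GFP-labelled libraries (adjusted p = 0.00504) and -1.30 ± 0.36 in Nfe2l1-labelled against GFP-labelled libraries (adjusted p = 0.00431). Between the factors it was 2.26 ± 0.31 in Nfya-labelled against Nfe2l1-labelled libraries (adjusted p = 1.28e-05). In that last comparison 16 of the 14151 tested genes had a higher log2 fold change, and 98.8% had a smaller absolute one. Against GFP, 1000 genes had a higher log2 fold change than Tp73 for Nfya, and 449 had a lower one for Nfe2l1. Summed over the group, 114 counts in Nfya-labelled libraries against 24 in Nfe2l1-labelled libraries gave a depth-adjusted ratio of 4.83, with a 95% interval of 3.09 to 7.85 that covers counting error only.

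Tp73 was a low transcript in every library, and lowest in Nfe2l1-labelled replicate 2 with 3 counts. An expected count of 3 is about the most that an observed count of 0 would leave possible, so Tp73 was near the floor there. On the log2(RPKM + 1) scale its differences shrank to 0.46 in Nfya-labelled against GFP-labelled libraries and -0.38 in Nfe2l1-labelled against GFP-labelled libraries, with adjusted p of 0.00593 and 0.0128 by limma. Between the factors, on that scale, it was 0.84. It passed the test in each of the 3 comparisons under each of the 20 alternatives in which it could be fitted. The adjusted p ranged between 0.00116 and 0.0409, between 0.00155 and 0.0234 and between 1.21e-08 and 4.54e-04 in the same order of comparisons.

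**Figure D3:**
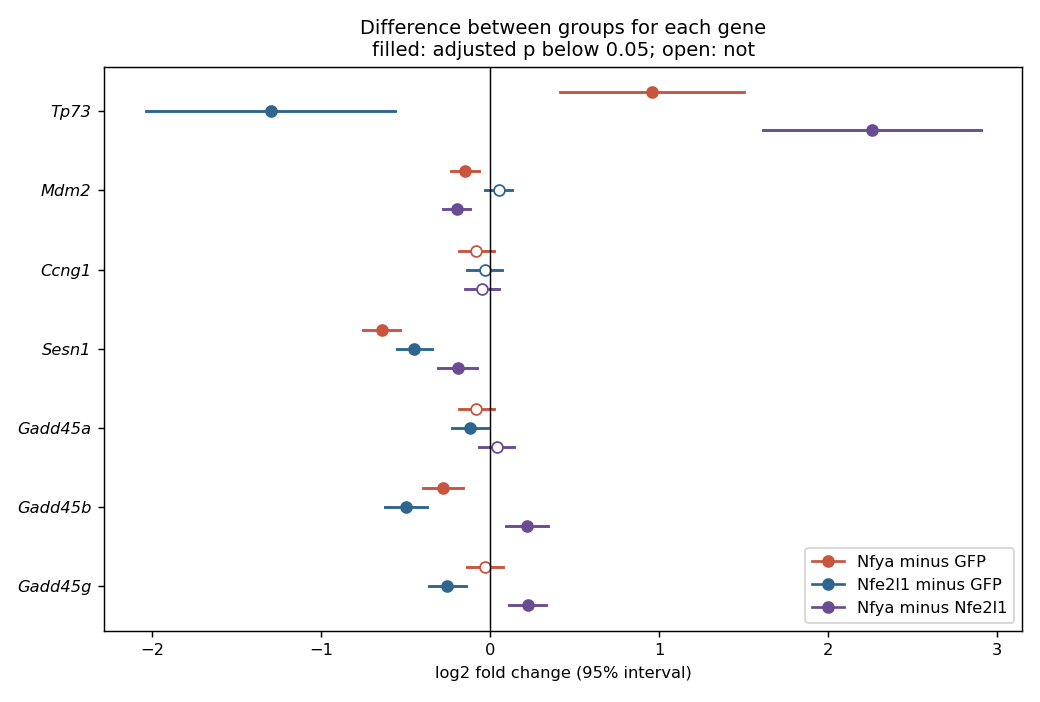
Log2 fold change of each gene (x axis) in Nfya-labelled minus GFP-labelled, Nfe2l1-labelled minus GFP-labelled and Nfya-labelled minus Nfe2l1-labelled libraries. Points are edgeR estimates, lines are 95% intervals, and filled points passed an adjusted p of 0.05. Tp73 stands at 0.96, -1.30 and 2.26, while the values of the 6 other genes lie between -0.64 and 0.22.

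Mdm2, the ubiquitin ligase that turns p53 over, fell by a small amount in Nfya-labelled libraries. It had 178.1, 183.6 and 176.6 CPM in Nfya-labelled libraries, 207.7, 212.4 and 198.4 CPM in Nfe2l1-labelled libraries and 200.4, 194.3 and 203.3 CPM in GFP-labelled libraries. The Nfya-labelled libraries lay below all 6 others, while the 2 remaining groups overlapped. The log2 fold change was -0.15 ± 0.04 in Nfya-labelled against GFP-labelled libraries (adjusted p = 0.00133) and -0.20 ± 0.04 in Nfya-labelled against Nfe2l1-labelled libraries (adjusted p = 1.08e-04). In Nfe2l1-labelled against GFP-labelled libraries it was 0.05 ± 0.04 (adjusted p = 0.223), with a 95% interval of -0.03 to 0.13. That value reached an adjusted p of 0.0391 with no filter on low counts and of 0.0439 without Nfe2l1-labelled replicate 3, at log2 fold changes of 0.08 and 0.09.

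Sesn1, which encodes a stress-induced inhibitor of mTORC1, fell in both factor groups and had the smallest adjusted p of the 7 genes in Nfya-labelled against GFP-labelled libraries. It had 77.7, 76.9 and 67.4 CPM in Nfya-labelled libraries, 81.0, 83.1 and 89.0 CPM in Nfe2l1-labelled libraries and 117.2, 111.7 and 118.0 CPM in GFP-labelled libraries. All 6 factor libraries lay below the 3 GFP-labelled ones. Relative to GFP the log2 fold change was -0.64 ± 0.05 in Nfya-labelled libraries (adjusted p = 3.39e-08), a fall of 36.0%. It was -0.45 ± 0.05 in Nfe2l1-labelled libraries (adjusted p = 9.95e-07), a fall of 26.8%.

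Of all tested genes 6.73% had a lower log2 fold change than Sesn1 in Nfya-labelled against GFP-labelled libraries and 14.3% in Nfe2l1-labelled against GFP-labelled libraries. In Nfya-labelled against Nfe2l1-labelled libraries the log2 fold change of Sesn1 was -0.19 ± 0.05 (adjusted p = 0.00695), and the 2 groups did not overlap. That call was lost with DESeq2 (adjusted p = 0.0630), without Nfya-labelled replicate 3 (adjusted p = 0.0545) and without Nfe2l1-labelled replicate 3 (adjusted p = 0.0876), where the log2 fold changes were -0.18, -0.13 and -0.13. Over the 21 alternatives the adjusted p ranged between 0.00122 and 0.0876.

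The products of the 3 Gadd45 genes bind PCNA, the CDK1 and cyclin B complex and stress MAP kinase kinase kinases. These 3 genes differed in the comparisons in which they passed the test, and were not tested against each other. Gadd45b fell in both factor groups, Gadd45g fell in Nfe2l1-labelled libraries, and the single call of Gadd45a depended on the settings. Gadd45b had 54.1, 59.0 and 58.5 CPM in Nfya-labelled libraries, 49.4, 49.4 and 48.8 CPM in Nfe2l1-labelled libraries and 70.8, 68.1 and 69.9 CPM in GFP-labelled libraries. The 3 groups were fully separated, lowest in Nfe2l1-labelled libraries. The log2 fold change of Gadd45b was -0.28 ± 0.06 in Nfya-labelled against GFP-labelled libraries (adjusted p = 5.46e-05) and -0.50 ± 0.06 in Nfe2l1-labelled against GFP-labelled libraries (adjusted p = 1.23e-07). It was 0.22 ± 0.06 in Nfya-labelled against Nfe2l1-labelled libraries (adjusted p = 0.00170).

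Gadd45g had 78.9, 79.3 and 80.4 CPM in Nfya-labelled libraries, 66.2, 69.8 and 68.6 CPM in Nfe2l1-labelled libraries and 79.8, 81.7 and 82.6 CPM in GFP-labelled libraries. The Nfe2l1-labelled libraries lay below the 6 others, and the Nfya-labelled and GFP-labelled ranges overlapped. The log2 fold change was -0.25 ± 0.06 in Nfe2l1-labelled against GFP-labelled libraries (adjusted p = 2.97e-05) and 0.22 ± 0.06 in Nfya-labelled against Nfe2l1-labelled libraries (adjusted p = 1.40e-04). In Nfya-labelled against GFP-labelled libraries it was -0.03 ± 0.05 (adjusted p = 0.631), with a 95% interval of -0.14 to 0.07.

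Gadd45a had 79.1, 83.9 and 81.3 CPM in Nfya-labelled libraries, 79.8, 82.0 and 76.8 CPM in Nfe2l1-labelled libraries and 82.3, 87.3 and 89.5 CPM in GFP-labelled libraries. The Nfe2l1-labelled libraries lay just below the GFP-labelled ones, and the Nfya-labelled libraries overlapped both. In Nfe2l1-labelled against GFP-labelled libraries the log2 fold change was -0.12 ± 0.05 (adjusted p = 0.0330), a call that held in 13 of 21 alternatives. It was lost with no filter on low counts (adjusted p = 0.195), with genes of at least 5 CPM (0.0754), with DESeq2 (0.239) and at a threshold of 0.01. It was also lost without Nfe2l1-labelled replicate 1 (0.106) or 3 (0.237) and without GFP-labelled replicate 2 (0.135) or 3 (0.136), and the log2 fold change moved to -0.08 without Nfe2l1-labelled replicate 3. Relative to GFP the log2 fold change in Nfya-labelled libraries was -0.08 ± 0.05 (adjusted p = 0.161, 95% interval -0.19 to 0.02), and between the factors it was 0.04 ± 0.05 (adjusted p = 0.575, 95% interval -0.07 to 0.14).

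Ccng1, the cyclin G1 gene and a p53 target, did not pass the test in any comparison. It had 404.0, 401.0 and 395.7 CPM in Nfya-labelled libraries, 425.2, 433.1 and 385.1 CPM in Nfe2l1-labelled libraries and 410.6, 402.8 and 460.7 CPM in GFP-labelled libraries. The groups overlapped in each comparison. The log2 fold change was -0.08 ± 0.05 in Nfya-labelled against GFP-labelled libraries (adjusted p = 0.167, 95% interval -0.19 to 0.02) and -0.03 ± 0.05 in Nfe2l1-labelled against GFP-labelled libraries (adjusted p = 0.565, 95% interval -0.14 to 0.07). It was -0.05 ± 0.05 in Nfya-labelled against Nfe2l1-labelled libraries (adjusted p = 0.432, 95% interval -0.15 to 0.05).

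At the extremes of library depth the level of Ccng1 ran against depth. Its lowest CPM came from the deepest library, Nfe2l1-labelled replicate 3, and its highest from the shallowest, GFP-labelled replicate 3. Gadd45a likewise had its lowest CPM, 76.8, and its highest, 89.5, in these libraries. The counts of Ccng1 differed only 1.08-fold between the lowest and the highest library, 2604 and 2824, while library totals differed 1.28-fold. Between GFP-labelled replicates 2 and 3 the totals had a ratio of 1.19 and Ccng1 counts a ratio of 1.05, against 1.13 to 1.28 for the 6 other genes. Between Nfe2l1-labelled replicates 3 and 2 the totals had a ratio of 1.13. There the counts had ratios of 1.02 for Ccng1, 1.07 for Mdm2, 1.08 for Gadd45a and 1.13 to 4 for the others. Ccng1 was also the most densely covered of the 7 genes, with a mean of 0.832 counts per base of the length behind the deposited RPKM values. Of the 14986 genes with such a length 44 were denser, and the densest had 1.45 counts per base. Gadd45g, Mdm2 and Gadd45a came next in density among the 7 genes, with 0.458, 0.435 and 0.434 counts per base. The part of depth in the values of the 7 genes was not tested beyond an alternative that expanded dense genes. Ccng1 also did not pass under that alternative.

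**Figure D4:**
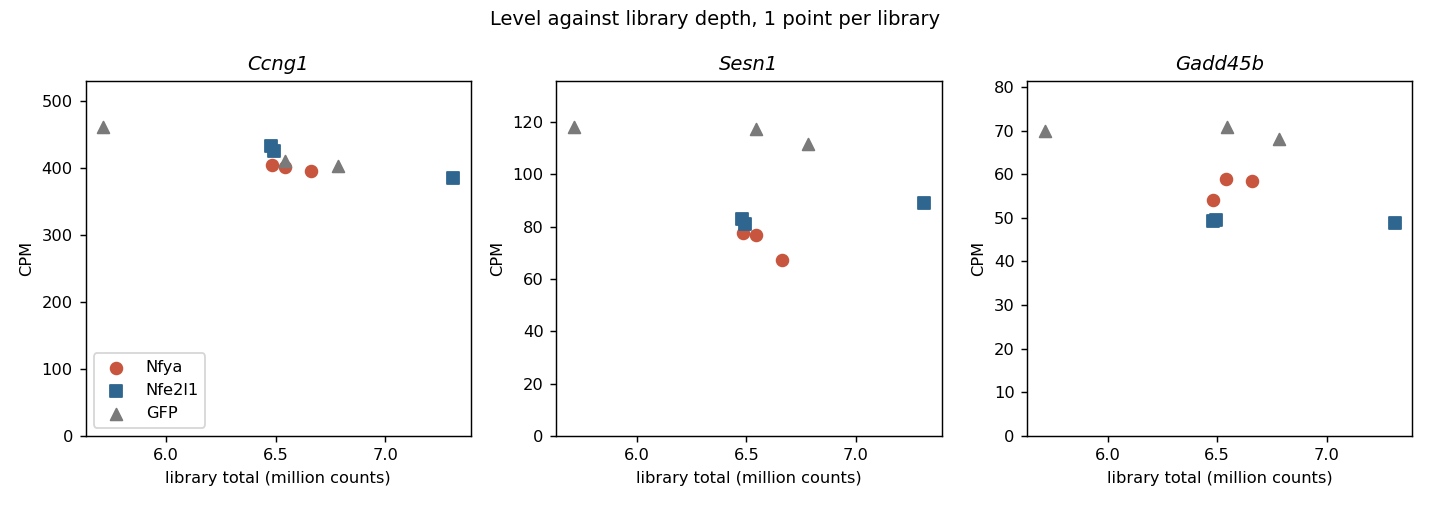
Level in CPM (y axis, from 0) against the total counts of the library (x axis) for Ccng1, Sesn1 and Gadd45b, 1 point per library, with circles for Nfya-labelled, squares for Nfe2l1-labelled and triangles for GFP-labelled libraries. Ccng1 is highest at the lowest total and lowest at the highest total, while Sesn1 and Gadd45b separate by group.

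Compared per length, in the deposited RPKM values, Ccng1 was the most abundant of the 7 genes in each group, with 125 ± 1.30 RPKM in Nfya-labelled, 127 ± 6.75 RPKM in Nfe2l1-labelled and 131 ± 9.01 RPKM in GFP-labelled libraries (SD, n = 3 each). Gadd45g, Gadd45a and Mdm2 came next in an order that differed between groups. In Nfya-labelled libraries they stood at 73.5 ± 0.711 RPKM for Gadd45g, 66.1 ± 1.93 RPKM for Gadd45a and 61.7 ± 1.24 RPKM for Mdm2, with no overlap between neighbours. In Nfe2l1-labelled libraries Mdm2 was the highest of the 3 with 69.9 ± 1.75 RPKM, and Gadd45a with 63.7 ± 1.50 RPKM overlapped Gadd45g with 62.2 ± 1.65 RPKM. In GFP-labelled libraries Gadd45g had 74.4 ± 1.07 RPKM, and Gadd45a with 69.3 ± 2.75 RPKM overlapped Mdm2 with 67.8 ± 1.32 RPKM.

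Below these the order was the same in each group. Gadd45b had 44.3 ± 2.06 RPKM in Nfya-labelled, 37.6 ± 0.153 RPKM in Nfe2l1-labelled and 53.3 ± 1.02 RPKM in GFP-labelled libraries. Sesn1 had 21.6 ± 1.67 RPKM in Nfya-labelled, 24.3 ± 1.41 RPKM in Nfe2l1-labelled and 33.4 ± 0.887 RPKM in GFP-labelled libraries. Tp73 was far lower, with 1.22 ± 0.172 RPKM in Nfya-labelled, 0.243 ± 0.127 RPKM in Nfe2l1-labelled and 0.620 ± 0.122 RPKM in GFP-labelled libraries.

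In the authors' deposited tables, which hold each factor against GFP, the log2 fold change of Tp73 was 0.99 for Nfya and -1.30 for Nfe2l1. The authors' deposited tables gave -0.61 and -0.45 for Sesn1, -0.25 and -0.50 for Gadd45b, and -0.11 and 0.05 for Mdm2, again for Nfya and then Nfe2l1. For Gadd45a, Gadd45g and Ccng1 the authors' deposited tables gave -0.05, 0.00 and -0.05 for Nfya and -0.12, -0.25 and -0.03 for Nfe2l1.

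The genes whose pattern was most like that of each member were found by Pearson's r of log2 CPM over the 9 libraries, among genes with a mean of at least 5 CPM. These values are descriptions, since the points share libraries and fall into 3 groups. For Tp73 the nearest were Tll1 (r = 0.974), Chsy3 (0.973) and Btbd2 (0.971), and for Mdm2 they were Tcp11l2 (0.988), Larp4b (0.982) and Paip2 (0.981). Sesn1 was nearest to Traf6 (0.994), Setd2 (0.988) and RGD1560065 (0.986). Gadd45b was nearest to AABR07037410.1 (0.991), RGD1566265 (0.991) and Khdrbs3 (0.989), Gadd45g to Fasn (0.995), Lrrc8a (0.992) and Patz1 (0.990), and Gadd45a to AABR07028009.1 (0.970), Ccnl1 (0.948) and Prrc2b (0.945). Ccng1 was nearest to Serinc1 (0.981), Ywhag (0.981) and Cnbp (0.976).

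The wider p53 pathway was described through 6 lists, whose counts are set beside the shares over all tested genes and were not tested against them. Those shares were 24.3% higher and 27.9% lower for Nfya against GFP, 28.9% higher and 29.7% lower for Nfe2l1 against GFP, and 25.2% higher and 25.4% lower for Nfya against Nfe2l1. The medians over all tested genes were -0.02, -0.01 and 0.01 on the log2 scale, in the same order of comparisons, which the called shares below also follow. Among 16 p53 family members and direct regulators, 2 were higher and 5 lower in Nfya-labelled against GFP-labelled libraries, with a median log2 fold change of -0.06. In Nfe2l1-labelled against GFP-labelled libraries 6 were higher and 6 lower, with a median of 0.00. For Nfya against Nfe2l1, 2 of the 16 were higher and 7 lower, with a median of -0.04. The shares of the list called were 43.8%, 75% and 56.2%, against 52.2%, 58.6% and 50.6% of all tested genes. The p53 relative Tp63 was also scarce, at a mean of 0.286 RPKM in Nfya-labelled, 0.206 RPKM in Nfe2l1-labelled and 0.506 RPKM in GFP-labelled libraries, with 31 counts summed over Nfya-labelled, 23 over Nfe2l1-labelled and 54 over GFP-labelled libraries. Its log2 fold change was -0.85 ± 0.37 in Nfya-labelled against GFP-labelled libraries (adjusted p = 0.0649) and -1.30 ± 0.39 in Nfe2l1-labelled against GFP-labelled libraries (adjusted p = 0.00954).

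Mdm4, the partner of Mdm2 in restraining p53, averaged 76.9 ± 3.13 CPM in Nfya-labelled, 79.2 ± 3.61 CPM in Nfe2l1-labelled and 79.1 ± 1.75 CPM in GFP-labelled libraries, and did not pass the test in any comparison. Hipk2, a kinase that phosphorylates p53, rose in both factor groups, with 240 ± 8.74 CPM in Nfya-labelled, 256 ± 9.36 CPM in Nfe2l1-labelled and 180 ± 3.80 CPM in GFP-labelled libraries. Its log2 fold changes against GFP were 0.42 ± 0.04 for Nfya (adjusted p = 1.05e-07) and 0.51 ± 0.04 for Nfe2l1 (adjusted p = 6.47e-09). Ppp1r13l, which encodes the p53 inhibitor iASPP, fell in both, with log2 fold changes of -0.43 ± 0.05 for Nfya (adjusted p = 4.40e-07) and -0.46 ± 0.05 for Nfe2l1 (adjusted p = 1.93e-07). Ppp1r13b, which encodes the p53-stimulating ASPP1, also fell, with log2 fold changes of -0.36 ± 0.05 for Nfya (adjusted p = 4.35e-06) and -0.45 ± 0.05 for Nfe2l1 (adjusted p = 2.81e-07).

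Of 40 other p53 target genes 37 were tested. In Nfya-labelled against GFP-labelled libraries 12 were higher and 8 lower, with a median log2 fold change of 0.03. In Nfe2l1-labelled against GFP-labelled libraries 15 were higher and 8 lower, with a median of 0.01, and in Nfya-labelled against Nfe2l1-labelled libraries 12 were higher and 8 lower. The shares called were 54.1%, 62.2% and 54.1%, against 52.2%, 58.6% and 50.6% of all tested genes. Cdkn1a, which encodes the cell cycle inhibitor p21, averaged 195 ± 2.07 CPM in Nfya-labelled, 195 ± 8.96 CPM in Nfe2l1-labelled and 193 ± 6.82 CPM in GFP-labelled libraries. Its log2 fold change was 0.01 ± 0.04 both in Nfya-labelled (adjusted p = 0.789) and in Nfe2l1-labelled libraries (adjusted p = 0.762) against GFP-labelled ones, with 95% intervals from -0.07 to 0.09.

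Dram1, a regulator of autophagy, rose in both factor groups. It had 41.8, 40.3 and 42.4 CPM in Nfya-labelled libraries, 20.7, 18.0 and 20.3 CPM in Nfe2l1-labelled libraries and 11.2, 12.1 and 10.6 CPM in GFP-labelled libraries. The log2 fold change of Dram1 was 1.87 ± 0.10 for Nfya against GFP (adjusted p = 2.45e-11) and 0.80 ± 0.12 for Nfe2l1 against GFP (adjusted p = 2.30e-06). Plk3, a stress-responsive polo-like kinase, rose in Nfe2l1-labelled libraries. It had 21.9, 17.6 and 20.7 CPM in Nfya-labelled libraries, 47.1, 49.1 and 47.6 CPM in Nfe2l1-labelled libraries and 22.7, 22.5 and 18.9 CPM in GFP-labelled libraries. The change of Plk3 was 1.16 ± 0.08 on the log2 scale for Nfe2l1 against GFP (adjusted p = 2.48e-09) and -0.10 ± 0.10 for Nfya against GFP (adjusted p = 0.444). Xpc, which recognises damaged DNA in nucleotide excision repair, differed by 0.51 ± 0.06 log2 units for Nfe2l1 against GFP (adjusted p = 1.90e-06) and by -0.17 ± 0.07 log2 units for Nfya against GFP (adjusted p = 0.0405), where the libraries overlapped.

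**Figure D5:**
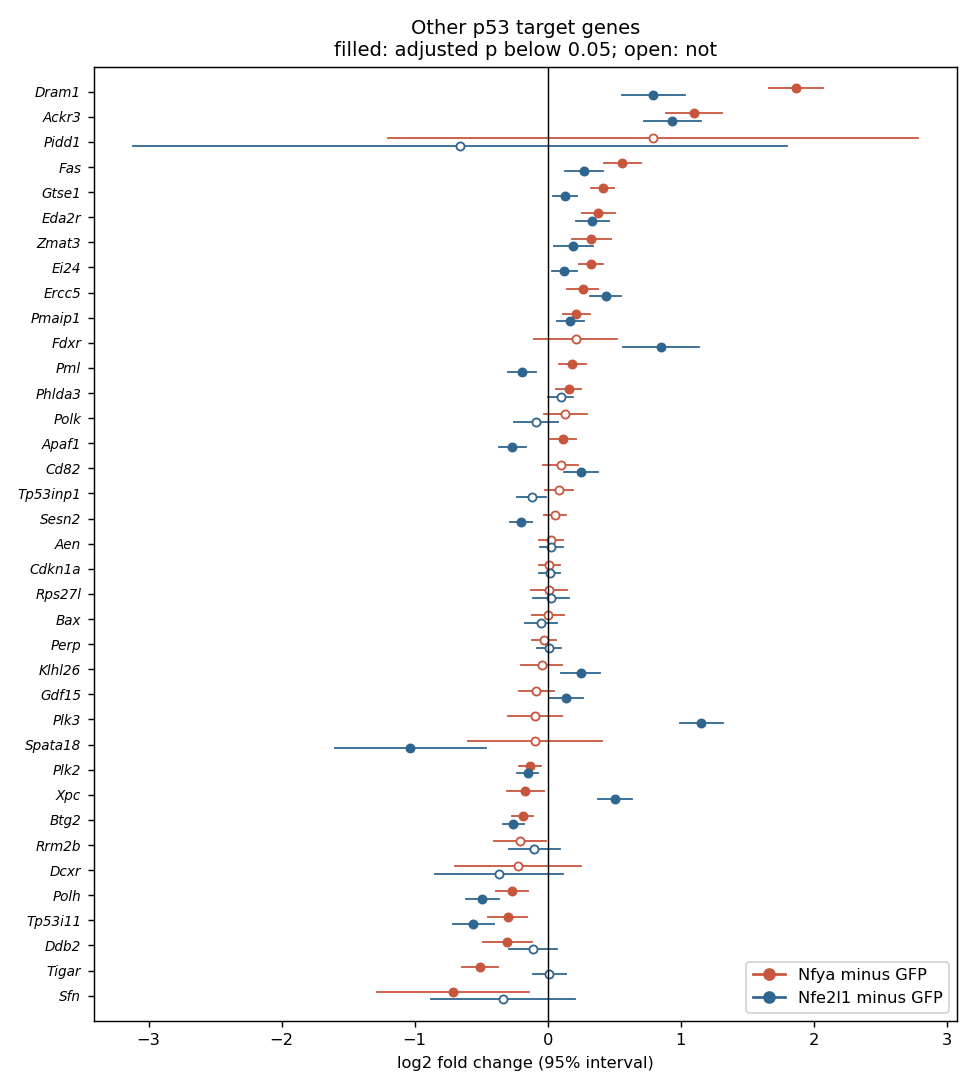
Log2 fold change (x axis) of 37 other p53 target genes, ordered by the value in Nfya-labelled minus GFP-labelled libraries (red) with Nfe2l1-labelled minus GFP-labelled libraries in blue. Lines are 95% intervals and filled points passed an adjusted p of 0.05. The genes spread to both sides of 0, with Dram1 at 1.87 and 0.80 at the top and Cdkn1a at 0.01 in both.

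The list of checkpoint kinases and sensors holds genes that act in the response to damaged DNA or stalled replication. Of 21 genes 8 were higher and 1 lower in Nfya-labelled against GFP-labelled libraries, 5 higher and 9 lower in Nfe2l1-labelled against GFP-labelled libraries, and 11 higher and 4 lower in Nfya-labelled against Nfe2l1-labelled libraries. The medians were 0.07, -0.09 and 0.12 on the log2 scale. The shares of this list called were 42.9%, 66.7% and 71.4%, against 52.2%, 58.6% and 50.6% of all tested genes. Timeless, a replication fork protector, fell in Nfe2l1-labelled libraries. It had 105.0, 104.6 and 102.6 CPM in Nfya-labelled libraries, 46.5, 39.2 and 50.2 CPM in Nfe2l1-labelled libraries and 98.7, 99.4 and 94.3 CPM in GFP-labelled libraries. For Timeless the log2 fold change was -1.10 ± 0.06 for Nfe2l1 against GFP (adjusted p = 3.40e-10) and 0.09 ± 0.05 for Nfya against GFP (adjusted p = 0.142).

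Clspn, which encodes claspin, an adaptor that activates the checkpoint kinase CHK1, moved in opposite directions. It had 44.6, 47.1 and 49.5 CPM in Nfya-labelled libraries, 19.1, 16.1 and 16.5 CPM in Nfe2l1-labelled libraries and 25.1, 25.1 and 28.8 CPM in GFP-labelled libraries. For Clspn the log2 fold change was 0.84 ± 0.08 for Nfya against GFP (adjusted p = 7.03e-08), -0.61 ± 0.10 for Nfe2l1 against GFP (adjusted p = 2.68e-05) and 1.45 ± 0.09 for Nfya against Nfe2l1 (adjusted p = 4.25e-10). Topbp1, an activator of the checkpoint kinase ATR, fell by 0.62 ± 0.04 log2 units for Nfe2l1 against GFP (adjusted p = 2.35e-10) and differed by -0.07 ± 0.04 log2 units for Nfya against GFP (adjusted p = 0.0924).

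Among 20 partners of the Gadd45 proteins and stress MAP kinases, 5 were higher and 4 lower for Nfya against GFP and 4 were higher and 9 lower for Nfe2l1 against GFP, with medians of -0.03 and -0.11. For Nfya against Nfe2l1, 6 were higher and 5 lower. Called shares were 45%, 65% and 55%, against 52.2%, 58.6% and 50.6% of all tested genes. Cdk1, the mitotic kinase that Gadd45 proteins restrain, averaged 66.0 ± 0.963 CPM in Nfya-labelled, 37.1 ± 0.747 CPM in Nfe2l1-labelled and 41.8 ± 1.50 CPM in GFP-labelled libraries. Its log2 fold change was 0.66 ± 0.07 for Nfya against GFP (adjusted p = 5.94e-09) and -0.17 ± 0.07 for Nfe2l1 against GFP (adjusted p = 0.0358). Pcna, the sliding clamp of replication, had a log2 fold change of 0.09 ± 0.05 for Nfya against GFP (adjusted p = 0.0947) and -0.40 ± 0.05 for Nfe2l1 against GFP (adjusted p = 5.73e-07). Mapk9, which encodes the kinase JNK2, differed by -0.03 ± 0.04 log2 units for Nfya against GFP (adjusted p = 0.551) and rose by 0.48 ± 0.04 log2 units for Nfe2l1 against GFP (adjusted p = 1.31e-09).

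Of 28 genes of the sestrin, GATOR and mTORC1 arm 26 were tested. For Nfya against GFP 5 were higher and 10 lower, with a median log2 fold change of -0.03. For Nfe2l1 against GFP 14 were higher and 4 lower, with a median of 0.13, and for Nfya against Nfe2l1 4 were higher and 14 lower, with a median of -0.14. In this arm 57.7%, 69.2% and 69.2% were called, against 52.2%, 58.6% and 50.6% of all tested genes. The relatives of Sesn1 had patterns of their own. Sesn2 averaged 179 ± 3.67 CPM in Nfya-labelled, 150 ± 1.46 CPM in Nfe2l1-labelled and 172 ± 6.07 CPM in GFP-labelled libraries, and fell by 0.20 ± 0.04 log2 units for Nfe2l1 against GFP (adjusted p = 7.39e-05). For Nfya against GFP the log2 fold change of Sesn2 was 0.05 ± 0.04 (adjusted p = 0.198). Sesn3 rose by 0.23 ± 0.07 log2 units for Nfya (adjusted p = 0.00169) and 0.32 ± 0.07 for Nfe2l1 (adjusted p = 3.99e-05), each against GFP.

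In the same arm, Keap1, an adaptor whose breakdown sestrins promote, fell by 0.30 ± 0.05 log2 units for Nfya against GFP (adjusted p = 1.33e-06) and rose by 0.25 ± 0.04 log2 units for Nfe2l1 against GFP (adjusted p = 3.86e-06). Ulk1, the kinase that starts autophagy, fell by 0.25 ± 0.05 log2 units for Nfya (adjusted p = 9.44e-05) and rose by 0.31 ± 0.05 log2 units for Nfe2l1 (adjusted p = 4.32e-06), each against GFP. Rptor, the scaffold of mTORC1, rose by 0.18 ± 0.04 log2 units for Nfya (adjusted p = 0.00272) and by 0.63 ± 0.04 log2 units for Nfe2l1 (adjusted p = 4.02e-09), each against GFP.

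Among 12 relatives and partners of cyclin G, 0 were higher and 5 lower for Nfya against GFP. For Nfe2l1 against GFP 2 were higher and 3 lower, and the medians were -0.07 and -0.05. For Nfya against Nfe2l1, 1 was higher and 3 were lower. Of these relatives and partners 41.7%, 41.7% and 33.3% were called, against 52.2%, 58.6% and 50.6% of all tested genes. Ccng2, the relative of Ccng1, fell in both factor groups, with 51.0 ± 1.38 CPM in Nfya-labelled, 55.1 ± 0.630 CPM in Nfe2l1-labelled and 63.0 ± 1.11 CPM in GFP-labelled libraries. Its log2 fold changes against GFP were -0.31 ± 0.06 for Nfya (adjusted p = 1.76e-05) and -0.19 ± 0.06 for Nfe2l1 (adjusted p = 0.00282). Ppp2r5b, a regulatory subunit of protein phosphatase 2A, fell by 0.24 ± 0.05 log2 units for Nfya (adjusted p = 2.92e-04) and rose by 0.44 ± 0.05 log2 units for Nfe2l1 (adjusted p = 1.04e-07), each against GFP. Gak, the cyclin G-associated kinase, had a log2 fold change of 0.01 ± 0.04 for Nfya against GFP (adjusted p = 0.921) and 0.21 ± 0.04 for Nfe2l1 against GFP (adjusted p = 1.22e-05).

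Markers of other cell types also differed between groups, where 24.3% of all tested genes were higher and 27.9% lower for Nfya against GFP and 28.9% higher and 29.7% lower for Nfe2l1 against GFP. Fibroblast markers summed to 2220 to 2243 CPM in Nfya-labelled, 1878 to 2022 CPM in Nfe2l1-labelled and 1285 to 1364 CPM in GFP-labelled libraries, and 10 of the 12 were higher and 1 lower for Nfya against GFP, with 10 higher and 0 lower for Nfe2l1 against GFP. Endothelial markers summed to 447 to 469 CPM in Nfya-labelled, 470 to 501 CPM in Nfe2l1-labelled and 321 to 335 CPM in GFP-labelled libraries over 9 genes, of which 7 were higher and 1 lower in either factor group against GFP. Epicardial and mesothelial markers summed to 216 to 241 CPM in Nfya-labelled, 301 to 315 CPM in Nfe2l1-labelled and 184 to 196 CPM in GFP-labelled libraries over 10 genes, of which 8 were higher and 2 lower in either factor group against GFP. Smooth muscle and pericyte markers summed to 1669 to 1676 CPM in Nfya-labelled, 1274 to 1342 CPM in Nfe2l1-labelled and 1551 to 1608 CPM in GFP-labelled libraries over 9 genes, with 5 higher and 1 lower for Nfya and 2 higher and 4 lower for Nfe2l1, each against GFP. Macrophage and leukocyte markers summed to 103 to 115 CPM in Nfya-labelled, 108 to 124 CPM in Nfe2l1-labelled and 74.3 to 92.7 CPM in GFP-labelled libraries over 7 genes, with 5 higher and 1 lower for Nfya and 4 higher and 0 lower for Nfe2l1, each against GFP. No listed marker found in the count table was at 0 over all 9 libraries, and Cd163 was nearest with 3 counts. The part of these cell types in the values of Tp73, Mdm2, Sesn1 and the Gadd45 genes was not tested.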

How the data were processed

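RNA of 9 rat cardiomyocyte samples was made into libraries with a stranded mRNA kit, per the labels' protocols. Per the submitters' processing notes, reads were checked with FastQC 0.11.4, counted per gene with featureCounts 1.6.0 and compared with edgeR 3.20.5. Builds named there are rn6, mm10 and GRCm38. For the aligner, strand setting, annotation version and treatment of duplicates, the entry is not given in the sources used here. The authors deposited whole-number counts per gene and RPKM values, as well as tables of log2 fold changes, log2 CPM, test scores and p-values with false discovery rates. The total per library was 5712123 to 7310774 counts, which sets the counting error of each value.

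The main test was edgeR 4.0.16 (quasi-likelihood F test, TMM factors, filterByExpr) in R 4.3.3 on the deposited counts of all 9 libraries, grouped by virus label, with Benjamini-Hochberg adjustment over 14151 genes. Alternatives used DESeq2 1.42.0 and limma 3.58.1. CPM was computed from each library's total over the tested genes, scaled by its TMM factor. The script was tested on simulated counts. Intervals of count ratios cover counting error only. Promoter windows are RefSeq sequences of GRCr8, and motif positions were matched with Python 3.11.15. Symbols of 199 of 205 list entries were found in the count table. The members and gene lists were chosen with earlier results of these data known. Members were named in full, and from each list the 3 genes with the smallest adjusted p over the comparisons among those with at least 1 CPM in some group, besides Tp63, Mdm4, Cdkn1a, Sesn2, Sesn3, Ccng2 and 1 gene that is not reported here.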

Additional observations from a re-analysis of the deposited data

How the results depend on the processing

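Each result was recomputed under 21 alternatives, of which the ceiling of 1.6 counts per base was chosen after seeing the data. The number of members called was 3 to 4 for Nfya against GFP, 3 to 5 for Nfe2l1 against GFP and 4 to 5 for Nfya against Nfe2l1. It differed by over 1.5 times from the reported 5 in 1 case, at 3 for Nfe2l1 against GFP with genes of at least 5 CPM, where Tp73 was not tested and Gadd45a lost its call. The estimate of Gadd45g for Nfya against GFP, never called, changed sign to 0.00788 with genes of at least 5 CPM and to 0.00398 with only the 6 libraries compared, and spanned -0.0399 to 0.00368 with 1 library left out. That of Ccng1 for Nfe2l1 against GFP, also never called, changed sign to 0.00135 with no filter on low counts and spanned -0.0662 to 0.0306 with 1 library left out. The cause of these changes was not tested. Otherwise 417 member values kept their direction and side of the threshold, 2 came past it and 11 no longer passed it, as named in the text for Mdm2, Gadd45a and Sesn1. Same-numbered replicates did not deviate together (r between -0.158 and 0.0585), and a replicate block gave 7220, 8137 and 6929 called genes and 4, 5 and 5 called members. DESeq2 called fewer genes, 5096, 6265 and 4829, against 7386, 8297 and 7158, within 1.5 times. No scaling moved the median of all genes by more than 0.1 on the log2 scale. Depth limits Tp73 most, with 3 to 42 counts per library.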

Other observations

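Cdkn2a, which encodes the cell cycle inhibitor p16 and the Mdm2 inhibitor ARF, is named here after its values were seen. It had 33, 42 and 47 counts in Nfya-labelled libraries, 39, 36 and 52 counts in Nfe2l1-labelled libraries and 6, 8 and 7 counts in GFP-labelled libraries. The 6 factor libraries all lay above the GFP-labelled ones. By edgeR its log2 fold change was 2.45 ± 0.32 (SE) for Nfya against GFP (adjusted p = 7.78e-07) and 2.48 ± 0.31 for Nfe2l1 against GFP (adjusted p = 4.72e-07). Counts per gene do not separate its p16 and ARF transcripts. Castor1, an arginine sensor of the mTORC1 pathway and also named after its values were seen, averaged 15.4 CPM in Nfya-labelled, 9.61 CPM in Nfe2l1-labelled and 6.84 CPM in GFP-labelled libraries. Its log2 fold change was 1.17 ± 0.16 for Nfya against GFP (adjusted p = 9.32e-06) and 0.50 ± 0.18 for Nfe2l1 against GFP (adjusted p = 0.0181).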
